A study of Mus musculus with 6 samples.

Results

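The IL-17 and IL-23 axis was followed in challenged ear skin through 9 genes: the cytokines Il17a and Il17f, the receptor chains Il17ra and Il17rc, the IL-23 subunits Il23a and Il12b, the receptor chain Il23r, and the chemokine receptor Ccr6 with its ligand Ccl20. They were chosen by name, and all 9 had 1 probe set each with a single gene symbol, out of 19938 genes on the array that could be named in this way. RNA came from whole ear pinna of 6 mice aged 10 to 12 weeks, 1 mouse and 1 FITC-treated ear per array. The 3 CLEC4C-DTR mice (genotype CLEC4C-DTR/+) carry the diphtheria toxin receptor under the control of CLEC4C, which human plasmacytoid dendritic cells express, and the other 3 mice were littermate controls without it. Diphtheria toxin (200 ng per injection) was given to both groups on days -1, 1, 3 and 5. Both were also sensitised with 0.5% FITC (fluorescein isothiocyanate) in acetone and dibutyl phthalate on the shaved abdomen on days 0 and 2 and challenged with it on the right ear on day 6. The solvent-treated left ears, toxin-free mice and skin before challenge were not analysed here, so the values compare 2 genotypes after toxin and challenge and give no baseline.

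IL-17A and IL-17F are related cytokines made by type 17 helper T cells, by gamma-delta T cells of the dermis and by innate lymphoid cells. They signal through a receptor that pairs the widely expressed chain IL-17RA with IL-17RC, and in keratinocytes they induce neutrophil chemokines, antimicrobial peptides and CCL20. IL-23 is a dimer of p19, encoded by Il23a, and p40, encoded by Il12b and shared with IL-12, and dendritic cells and macrophages release it. It acts on cells that carry IL-23R and sustains their IL-17 production, and many of these cells also carry CCR6 and follow CCL20 into the skin.

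The 250 bases before the RefSeq start site are shown for Ccl20, the member with the largest rise, and for the IL-17 cytokine pair, Il17a and Il17f. Sequences are from RefSeq (GRCm38.p6) and run 5′ to 3′ on the gene's strand. Their windows lie at chr1:83116516-83116765 on the plus strand, chr1:20730655-20730904 on the plus strand and chr1:20784271-20784520 on the minus strand, all ending just before the first transcribed base. Capitals mark matches on either strand to 3 motifs: the NF-kB site consensus, the half-site of ROR nuclear receptors (AGGTCA, which other nuclear receptors also bind) and the AP-1 site (TGANTCA).
Ccl20: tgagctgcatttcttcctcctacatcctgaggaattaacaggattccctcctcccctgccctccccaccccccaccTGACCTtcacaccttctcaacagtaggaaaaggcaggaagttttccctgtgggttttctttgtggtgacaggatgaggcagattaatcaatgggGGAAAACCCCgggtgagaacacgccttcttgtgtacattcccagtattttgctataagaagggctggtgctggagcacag
Il17a: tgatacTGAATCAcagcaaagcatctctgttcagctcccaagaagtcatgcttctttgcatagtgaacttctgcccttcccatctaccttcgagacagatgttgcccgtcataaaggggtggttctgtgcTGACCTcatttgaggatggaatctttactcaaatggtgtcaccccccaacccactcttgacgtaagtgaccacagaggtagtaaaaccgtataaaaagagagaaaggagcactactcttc
Il17f: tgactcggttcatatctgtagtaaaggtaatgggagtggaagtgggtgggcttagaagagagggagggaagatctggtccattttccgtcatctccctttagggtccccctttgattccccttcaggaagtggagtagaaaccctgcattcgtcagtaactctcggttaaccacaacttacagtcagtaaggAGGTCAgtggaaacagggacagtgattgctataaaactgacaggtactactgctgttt
The Ccl20 window held an NF-kB consensus match that begins 80 bases before the start site and an AGGTCA match that begins 174 bases before it. Il17a held an AGGTCA match from 120 bases and a TGANTCA match from 244 bases before its start, and Il17f an AGGTCA match from 58 bases before its start. None of these matches overlapped another. Of the members not shown, Il23r and Ccr6 also held AGGTCA, and another Ccr6 window held the NF-kB consensus. The Il17rc and Il12b windows held none of the 3 motifs, and Il17ra and Il23a had no window. Over all 32851 windows of this length in the RefSeq table, 7.25% held the NF-kB consensus, 14.0% AGGTCA and 6.75% TGANTCA. Whether the members hold more matches than other genes was not tested. The matches describe letters only, and the arrays measured no binding.

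In CLEC4C-DTR skin 2 of the 9 genes passed the test, both upward: the ligand Ccl20 and the receptor chain Il17ra. The cytokine genes Il17a and Il17f were higher in all 3 CLEC4C-DTR mice than in any control, by 1.56-fold and 1.31-fold, and did not pass. The IL-23 subunit genes and Il17rc overlapped between the groups. Il23r was spread more widely among the CLEC4C-DTR mice than between the groups. A gene passed at an adjusted p of 0.05 in limma, a linear model with variances moderated across genes, after Benjamini-Hochberg adjustment over all 19938 genes. By the same rule 9.32% of all genes passed, and 5.01% passed upward. The members' share was 22.2%, and the median log2 difference was 0.36 for the 9 members and -0.04 for all genes. Both calls ended without variance moderation (adjusted p = 0.146 for Ccl20 and 0.163 for Il17ra), and when unnamed probe sets were tested too (0.056 and 0.0672). Over all 19938 genes, 0 passed in the first of these fits and 70 in the second. Whole skin was measured, so more cells of a type and more RNA per cell cannot be told apart.

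**Figure D1:**
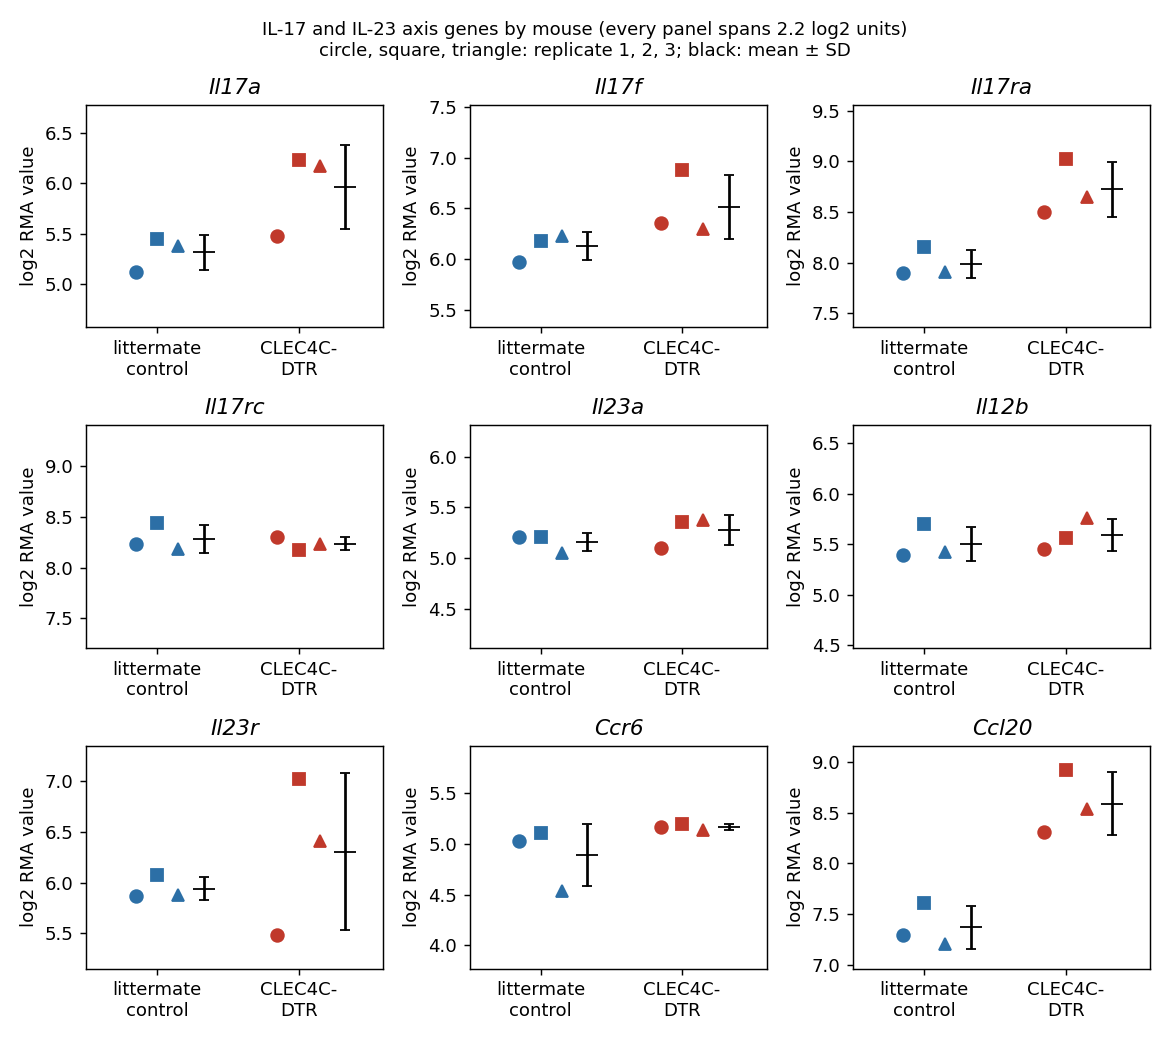
Each panel plots the log2 RMA value of 1 gene in each of the 6 mice, littermate controls in blue and CLEC4C-DTR in red, with replicates 1, 2 and 3 as circle, square and triangle and the mean ± SD in black. Ccl20 and Il17ra show a gap between the groups, Il17rc, Il23a and Il12b overlap, and Il23r runs from 5.48 to 7.02 within the CLEC4C-DTR mice.

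Ccl20 (probe set 10347888), the chemokine that draws CCR6-bearing T cells and dendritic cells, had log2 values of 8.31, 8.92 and 8.54 in CLEC4C-DTR replicates 1, 2 and 3 and of 7.29, 7.61 and 7.20 in the control replicates. Every CLEC4C-DTR mouse was above every control, and the nearest pair was CLEC4C-DTR replicate 1 and control replicate 2. The mean was 8.59 ± 0.31 (SD, n = 3) against 7.37 ± 0.22 (SD, n = 3), a rise of 2.33-fold (95% interval 1.78 to 3.05, log2 difference 1.22, SE 0.17, adjusted p = 0.0129). Ccl20 was the only member past the 2-fold threshold of the design text, which 1.67% of all genes met upward together with the adjusted p. Its adjusted p was 0.053 without CLEC4C-DTR replicate 3, 0.0542 without control replicate 1 and 0.0657 without control replicate 3, with rises of 1.25, 1.18 and 1.14 on the log2 scale in these fits, in which 108, 167 and 67 of all genes passed.

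The receptor for CCL20 did not pass. Ccr6 (probe set 10441633) had log2 values of 5.17, 5.20 and 5.14 in the CLEC4C-DTR mice and 5.03, 5.11 and 4.54 in the controls. The CLEC4C-DTR values lay together just above control replicate 2, and control replicate 3 was the low value of the set. The log2 difference of 0.28 had a 95% interval from -0.05 to 0.61 (adjusted p = 0.26), and it was 0.10 without control replicate 3.

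Among the receptor chains, Il17ra (probe set 10541246), the shared signalling chain for several IL-17 cytokines, had log2 values of 8.50, 9.02 and 8.65 in CLEC4C-DTR replicates 1, 2 and 3 and of 7.90, 8.15 and 7.91 in the controls. The groups did not overlap, and replicate 2 was the highest mouse of each group, as it was for Ccl20. Il17ra rose 1.67-fold (95% interval 1.33 to 2.10, log2 difference 0.74, SE 0.14, adjusted p = 0.0243), which is below 2-fold. Its adjusted p was 0.0712 without CLEC4C-DTR replicate 3, 0.083 without control replicate 1 and 0.105 without control replicate 3. Il17rc (probe set 10540705), the partner chain that gives the receptor its specificity for IL-17A and IL-17F, had log2 values of 8.30, 8.17 and 8.23 against 8.23, 8.44 and 8.18. The groups overlapped fully, and the 95% interval of the difference ran from 0.834-fold to 1.13-fold (adjusted p = 0.802). Whether the 2 chains differ in their response was not tested.

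The cytokine Il17a (probe set 10345032) had log2 values of 5.48, 6.23 and 6.17 in the CLEC4C-DTR mice and 5.12, 5.45 and 5.38 in the controls. Replicates 2 and 3 stood well above the controls, while CLEC4C-DTR replicate 1 lay just above the highest control. The log2 difference was 0.64 (SE 0.20, 95% interval 0.19 to 1.10, adjusted p = 0.0804). It passed without CLEC4C-DTR replicate 1, where it was 0.88 (adjusted p = 0.00428), as did 2617 of all genes. The adjusted p of Il17a lay between 0.117 and 0.214 with any other array left out. Il17f (probe set 10353415), the neighbour and close relative of Il17a, had values of 6.36, 6.88 and 6.30 against 5.97, 6.18 and 6.23. Here CLEC4C-DTR replicate 2 stood apart and the other two lay just above the controls. The log2 difference was 0.39 (SE 0.16, adjusted p = 0.159) and 0.21 without CLEC4C-DTR replicate 2.

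Neither IL-23 subunit gene passed. Il23a (probe set 10373358), the p19 subunit that is particular to IL-23, had log2 values of 5.10, 5.35 and 5.37 in the CLEC4C-DTR mice and 5.21, 5.21 and 5.05 in the controls. Il12b (probe set 10375331), the shared p40 subunit, had values of 5.45, 5.56 and 5.76 against 5.39, 5.70 and 5.42. Both genes overlapped between the groups, with CLEC4C-DTR replicate 1 among the controls. The 95% interval of the difference ran from 0.921-fold to 1.28-fold for Il23a (adjusted p = 0.507) and from 0.883-fold to 1.29-fold for Il12b (adjusted p = 0.661), so changes of 2-fold on this scale lie outside both. Both probe sets are dim, with a mean level at percentile 25.3 for Il23a and 31.1 for Il12b over the 19938 genes, and RMA understates differences of dim genes.

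Il23r (probe set 10545154), the receptor chain that marks cells able to respond to IL-23, had log2 values of 5.48, 7.02 and 6.41 in CLEC4C-DTR replicates 1, 2 and 3 and of 5.87, 6.07 and 5.88 in the controls. The highest and the lowest mouse of all 6 were both CLEC4C-DTR mice. The SD was 0.78 (n = 3) in that group and 0.11 (n = 3) in the controls, and the log2 difference of 0.36 had a 95% interval from -0.39 to 1.12 (adjusted p = 0.524). Leaving out CLEC4C-DTR replicate 1 gave a difference of 0.77 (adjusted p = 0.03), and leaving out CLEC4C-DTR replicate 2 gave 0.00 (adjusted p = 0.995). Of all genes, 2617 passed in the first of these fits and 466 in the second.

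**Figure D2:**
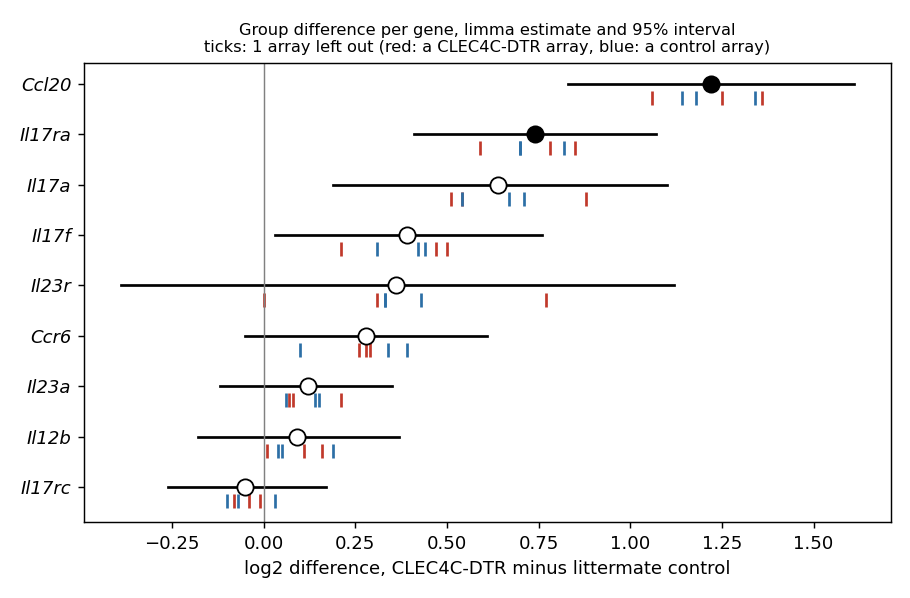
Circles give the log2 difference of each gene, CLEC4C-DTR minus littermate control, with limma's 95% interval as a line, filled where the gene passed an adjusted p of 0.05. The ticks under each line are the differences with 1 array left out, red for a CLEC4C-DTR array and blue for a control array. Those of Il23r run from 0.00 to 0.77 and those of Ccl20 from 1.06 to 1.36.

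The mouse with the highest value was not the same for all members. CLEC4C-DTR replicate 2 held the highest value of 6 of the 9 genes, CLEC4C-DTR replicate 3 of 2 and control replicate 2 of 1. This was not particular to the members. By mean log2 value CLEC4C-DTR replicate 2 was also highest in the IL-17 target, neutrophil and T cell lists below, though not in the monocyte and macrophage list. Averaged over the 9 genes, CLEC4C-DTR replicates 1, 2 and 3 lay 0.18, 0.64 and 0.45 above the control mean on the log2 scale, and the control replicates at -0.06, 0.15 and -0.09. In 5 of the 9 genes all CLEC4C-DTR values exceeded all control values (14.0% of all genes), and in none did all lie below, as they did in 19.0% of all genes. An exact two-sided permutation test of 1 gene with 3 against 3 mice cannot give less than 0.1, and these 5 genes each reached that smallest value.

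The genes whose pattern over the 6 arrays was most like that of the 2 members that passed were found by the root-mean-square difference between log2 values centred on each gene's own mean. For Ccl20 they were Rnf19b (0.0593), Arrdc4 (0.0739) and Glipr2 (0.0831). For Il17ra they were Kdm6b, a histone H3 lysine demethylase gene (0.0449), Vasp, an actin regulator (0.0555), and Csf2ra, the alpha chain of the GM-CSF receptor (0.0598). Csf2ra had log2 values of 8.54, 8.88 and 8.62 in the CLEC4C-DTR mice and 7.86, 8.12 and 7.79 in the controls. As for Il17ra, replicate 2 was the highest mouse of each group. These are likenesses over 6 values from shared arrays and carry no test.

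None of the other IL-17 cytokine and receptor genes rose. Of 7 measured, 1 fell and 6 did not pass, and their median log2 difference was -0.13. The 1 that fell was Il17rb, the receptor chain for the type 2 cytokine IL-25, with log2 values of 5.85, 5.50 and 5.60 in the CLEC4C-DTR mice and 6.05, 6.11 and 6.39 in the controls. All CLEC4C-DTR values were below all controls (log2 difference -0.53, SE 0.13, adjusted p = 0.0408), and 4.31% of all genes passed downward. The list held no call without CLEC4C-DTR replicate 2 or 3 or without any one control. In those fits limma gave an unadjusted p under 0.05 for 2 to 3 of its genes, and 67 to 1219 of all genes passed. Il17rd, a receptor-like chain that modulates IL-17 signalling, differed by -0.56 (adjusted p = 0.0589) and Il17d by -0.21 (adjusted p = 0.144). Il17c, an epithelial cytokine, had values of 5.88, 5.93 and 5.91 against 5.81, 6.05 and 5.94 and overlapped between the groups.

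Among genes that carry the IL-17 receptor signal or restrain it, 3 of 19 rose, 1 fell and 15 did not pass, with a median log2 difference of 0.16. By the same rule 5.01% of all genes rose and 4.31% fell. Nfkbia, the inhibitor that holds NF-kB in the cytoplasm, rose by 0.95 (SE 0.17, log2, adjusted p = 0.0202). Zc3h12a, which encodes the RNase Regnase-1 that degrades inflammatory transcripts, rose by 0.87 (adjusted p = 0.0351), and Arid5a, an RNA-binding protein that stabilises such transcripts, by 0.82 (adjusted p = 0.0353). Traf5, an adaptor of the pathway, fell by 0.59 (adjusted p = 0.0394). Of the other adaptor genes, Traf3ip2, which encodes Act1, differed by -0.14 (adjusted p = 0.338) and Traf6 by 0.21 (adjusted p = 0.373). They were picked out with their values in view. The list held 6 calls without CLEC4C-DTR replicate 1 and 4 without control replicate 2. In the remaining 4 fits with an array left out limma called 0 of its genes, and 7 to 9 had an unadjusted p under 0.05. Over all genes, 2617 passed without CLEC4C-DTR replicate 1, 1219 without control replicate 2 and 67 to 466 in the remaining fits.

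Of 19 genes of type 17 cell differentiation, 5 rose, 2 fell and 12 did not pass, with a median log2 difference of 0.38. Over all genes 5.01% rose and 4.31% fell. Il1b, a cytokine that acts with IL-23 on type 17 cells, rose 5.40-fold (adjusted p = 0.0192), with log2 values of 10.74, 12.32 and 12.15 against 9.56, 9.71 and 8.65. Il7r, a survival receptor of T and innate lymphoid cells, rose 2.32-fold (adjusted p = 0.0164) and Il21r 1.85-fold (adjusted p = 0.0169). Tgfb1 rose by 0.67 and Hif1a, the hypoxia-inducible factor, by 0.78 on the log2 scale. Both genes that fell encode transcription factors that favour the type 17 programme and are also expressed in skin cells outside the immune system. Rora had log2 values of 8.58, 8.01 and 8.40 in the CLEC4C-DTR mice and 9.32, 8.92 and 9.27 in the controls, and fell by 0.84 (adjusted p = 0.0254). Ahr, the aryl hydrocarbon receptor, fell by 0.52 (adjusted p = 0.0212), from 8.74, 8.66 and 8.85 to 8.37, 8.17 and 8.15. The list held 9 calls without CLEC4C-DTR replicate 1, 10 without control replicate 2 and 2 without CLEC4C-DTR replicate 2. Over all genes these fits made 2617, 1219 and 466 calls. Leaving out CLEC4C-DTR replicate 3, control replicate 1 or control replicate 3, limma called 0 of its genes, and 12 had an unadjusted p under 0.05. Calls over all genes were then 108, 167 and 67.

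Of 12 IL-12 and IL-23 partner and signalling genes, 2 passed, both upward, and the median log2 difference was 0.31. The share passing upward over all genes was 5.01%. Stat4, the transcription factor downstream of the IL-12 receptor and in part of the IL-23 receptor, rose 3.99-fold (SE 0.28, log2, adjusted p = 0.0137). Its log2 values were 6.26, 7.35 and 7.12 against 4.86, 5.28 and 4.61, with no overlap. Ebi3, a subunit of IL-27 and IL-35, rose 1.44-fold (adjusted p = 0.0142). Stat3, through which IL-23 chiefly signals, had values of 10.30, 10.47 and 10.42 against 9.96, 10.22 and 9.87 and did not pass (log2 difference 0.38, adjusted p = 0.0654). The list held no call without CLEC4C-DTR replicate 3, control replicate 1 or control replicate 3, fits in which 108, 167 and 67 of all genes passed. In these fits 4 to 6 genes of the list had an unadjusted p under 0.05 in limma.

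Genes that IL-17 is known to induce in epithelium were the part of the pathway with the most calls. Of 30 measured, 21 passed, all upward, and the median log2 difference was 1.66. Upward calls made up 5.01% of all genes. The list was drawn up with earlier results of these arrays known, and IL-1, TNF, IL-36 and injury induce many of the same genes. The 8 with the smallest p were the acute phase gene Saa1, the calprotectin genes S100a8 and S100a9, the neutrophil chemokines Cxcl5 and Cxcl3, the iron-binding lipocalin Lcn2 and the injury keratins Krt6a and Krt17. S100a8 and S100a9 are on the neutrophil marker list as well, and without them 19 of 28 targets rose. Which cells the transcripts of the remaining targets came from was not tested. Saa1 rose 5.96-fold (log2 difference 2.58, SE 0.16, adjusted p = 0.0027), from 4.64, 4.52 and 4.15 in the controls to 6.74, 7.24 and 7.07. Cxcl5 rose 14.5-fold, from 5.45, 6.70 and 5.63 to 9.30, 10.44 and 9.62. Not every target moved: the monocyte chemokine Ccl2 had values of 11.32, 11.13 and 10.25 against 10.84, 11.35 and 10.69, and S100a7a differed by 0.18 (adjusted p = 0.525). Those 2 genes, too, were picked with their values in view. The count of rises was 10 without CLEC4C-DTR replicate 3 or control replicate 3 and 11 without control replicate 1. Over all genes, upward calls went from 998 to 70, 49 and 108 in these fits, in the same order.

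**Figure D3:**
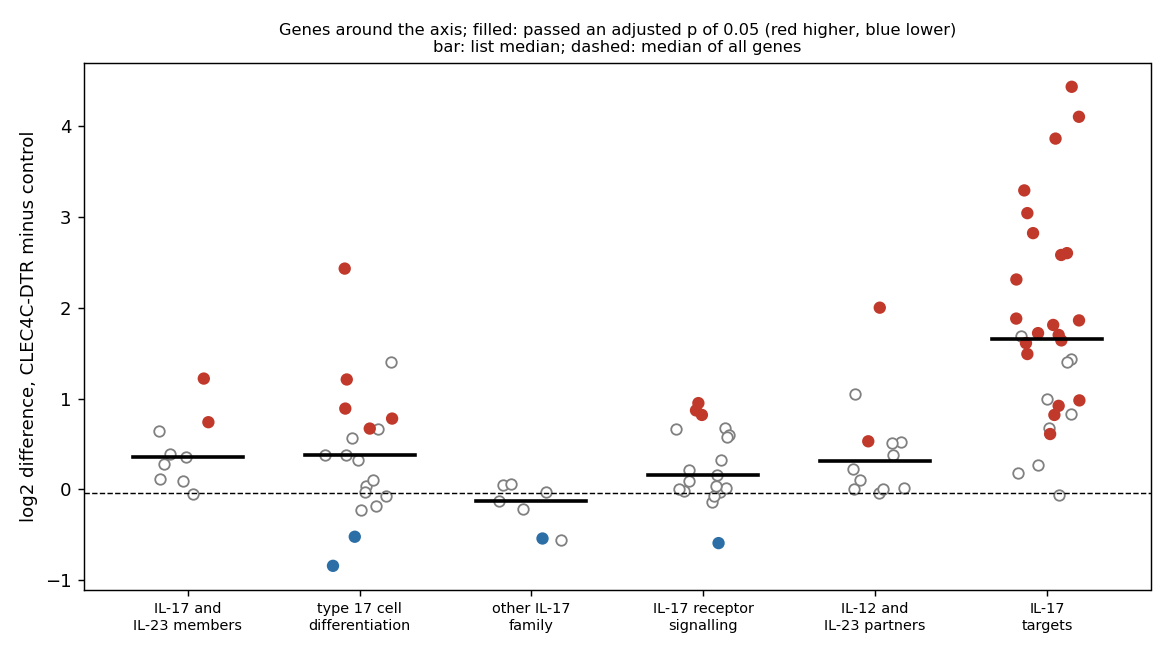
Each point is 1 gene, placed by its log2 difference, CLEC4C-DTR minus littermate control, for the 9 members and the 5 surrounding gene lists. Filled points passed an adjusted p of 0.05 (red higher, blue lower), bars give list medians and the dashed line the median of all genes. The target list has a median of 1.66, while the members and the signalling lists lie between -0.13 and 0.38.

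Some lists of cell type markers were higher along with the members and others were not, and their part in the results was not tested. Keratinocytes, the main epidermal cells and a source of Ccl20, gave bright values on every array, with Krt14 at 12.01 to 12.22 in log2 units. Beside the counts that follow, 5.01% of all genes rose and 4.31% fell. Of 11 keratinocyte genes none rose and 1, Krt15, fell. Their summed level (log2 of the summed linear values) was 14.46 to 14.85 in CLEC4C-DTR skin and 14.81 to 14.93 in controls. Neutrophil genes rose in 9 of 12, with a summed level of 14.25 to 14.95 against 12.86 to 13.05. That sum is mostly S100a8 and S100a9, which are on the IL-17 target list as well. Monocyte and macrophage genes rose in 9 of 12, at 13.14 to 13.49 against 12.45 to 12.78. Both kinds of cell express Il17ra. Of 9 T cell genes 1 rose, Cd2, all 9 had higher values, and the summed level was 10.27 to 10.54 against 9.78 to 9.98. Among 3 measured gamma-delta T cell genes none passed, and their summed level overlapped, 7.95 to 8.23 against 7.87 to 7.98. Of 10 innate lymphoid and NK cell genes 3 rose, Klrb1b, Il2rb and Nkg7 (11.14 to 11.54 against 10.79 to 11.09). On that list 7 genes had higher and 3 lower values, and Id2, Gata3 and Gzmb were the brightest. Gata3 was lower in every CLEC4C-DTR mouse (log2 difference -0.58, not called). The dim genes Ncr1, Klrb1c and Eomes overlapped between the groups, with log2 differences of 0.05, -0.17 and -0.10. Of 14 genes of conventional dendritic and Langerhans cells, a source of IL-23, 5 rose (10.62 to 10.78 against 10.41 to 10.51). In that list 8 genes had higher and 6 lower values. Cd207 and Epcam were among the lower (log2 differences -0.36 and -0.35) and did not pass. B cells, which carry Ccr6, showed 0 of 7 genes called by limma, with 1 at an unadjusted p under 0.05, and Ms4a1, which encodes CD20, was near the bottom of the scale at 3.84 to 4.12. None of 10 plasmacytoid dendritic cell genes was called by limma. The 3 with an unadjusted p under 0.05 in limma were Bst2 (log2 difference 0.57), Tcf4 (-0.41) and Smim5 (-0.28). The summed level was 12.14 to 12.17 against 12.23 to 12.33, and Ly6d, at 11.14 to 11.50 over the 6 arrays, weighs most in it. Cox6a2, Bst2 and Tcf4 were the next brightest, so the sum does not follow the dim genes of the list. It is no measure of the number of these cells. Siglech overlapped between the groups, at 5.42 to 5.52 against 5.41 to 5.83. Ear cartilage genes fell in 3 of 9, at 9.86 to 10.24 against 10.42 to 10.65.

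**Figure D4:**
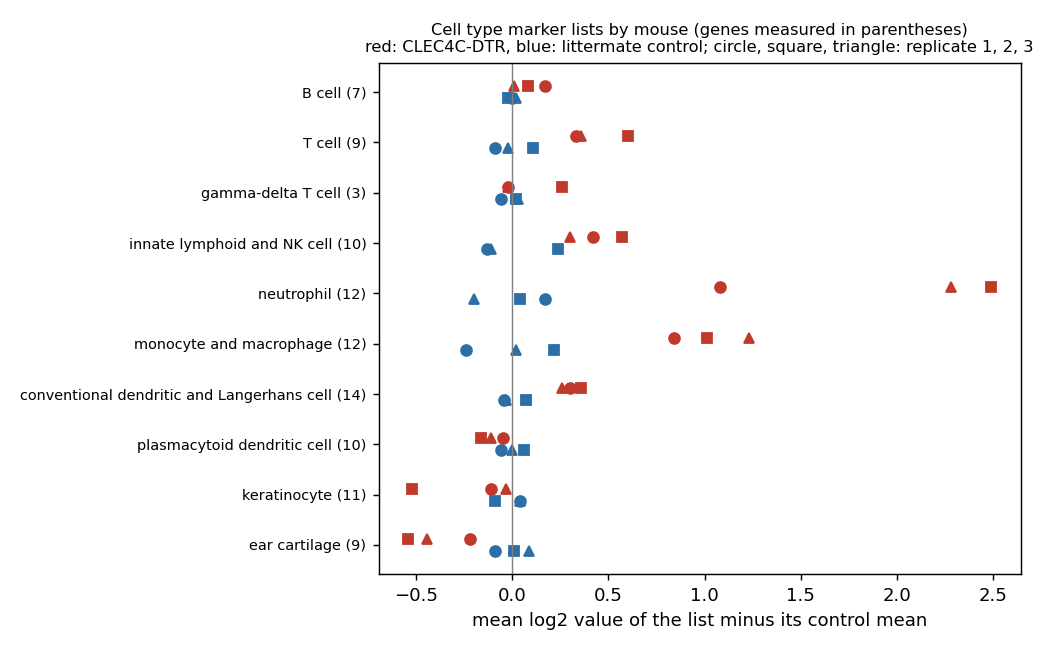
For each cell type marker list, points give the mean log2 value of the list in each mouse minus the mean of the controls, CLEC4C-DTR in red and littermate controls in blue, with replicates 1, 2 and 3 as circle, square and triangle. Neutrophil lists lie 1.08, 2.49 and 2.28 above the controls in CLEC4C-DTR replicates 1, 2 and 3, T cell lists 0.33, 0.60 and 0.36, and B cell lists 0.17, 0.08 and 0.01.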

How the data were processed

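Biotin-labelled RNA of whole ear skin was hybridised to Affymetrix Mouse Gene 1.0 ST arrays, per the labels' protocols. Per the design text, the values the authors deposited are log2 values from RMA, which corrects background, quantile-normalises the arrays and summarises each probe set. The values run from 1.60 to 13.94, with array medians of 6.17 to 6.23, and no 2 arrays were identical. RMA removes a shift shared by most genes, and it understates changes of dim genes. The RMA software was not given in the sources used, and the build mm8 appears in the submitters' processing notes with no role. Of 35556 probe sets, 21789 had 1 gene symbol in the platform annotation, 1621 several and 12146 were unnamed here. Names were updated through RefSeq (GRCm38.p6) for 21698. The brightest probe set of a gene was kept, giving 19938 genes, with no filter on low values.

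The groups were compared with limma 3.58.1 in R 4.3.3 (lmFit, eBayes), two-sided, with no covariate and Benjamini-Hochberg adjustment over all genes. The design text's 2-fold threshold is given beside it. Precision is limited by having 3 arrays per group. On simulated data the fit recovered 25, 38, 49 and 50 of 50 genes shifted by 0.5, 1, 2 and 3 (log2). Named were all members, up to 8 passing genes of each pathway list by p (the top 3 where fewer than 3 pass), and the 3 genes most like each passing member. The members, lists, tests and alternatives were chosen with earlier results of these data known. Some listed genes had no single-symbol probe set and were not used here. Promoter windows matched 7 of the 9 members. Alternatives covered scaling, a level filter, variance moderation, array weights, probe set rules, a replicate block and each array left out. Figures were drawn with matplotlib 3.10.9.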

Additional observations from a re-analysis of the deposited data

How the results depend on the processing

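The difference of every member except Il17rc kept its direction under each alternative, though that of Il23r was 0.00 without CLEC4C-DTR replicate 2. Il17rc, at -0.05 with all arrays, ran from -0.10 to 0.03 on the log2 scale with single arrays left out. Median centring, a further quantile normalisation, trended moderation and both probe set rules within named genes left 2 members past the threshold, Ccl20 and Il17ra. Without moderation of variances limma's linear model called 0 members, and 0 genes in each of the 5 lists (2 members and 21 of the IL-17 targets had an unadjusted p under 0.05). That fit called 0 of all 19938 genes, with 4387 at an unadjusted p under 0.05. With all 35556 probe sets tested, the adjusted p was 0.056 for Ccl20 and 0.0672 for Il17ra, 0 members were called (3 at an unadjusted p under 0.05), 9 IL-17 targets passed, and the other 4 lists had 0 calls. Of all 19938 genes 70 passed in that fit, against 1858 in the fit of named genes alone. Among genes above the median level, which kept 3 of the 9 members, the IL-12 and IL-23 partners held 1 call in 7 genes tested and the other IL-17 family 0 in 1. Array weights gave 3 members, with Il17a at an adjusted p of 0.0444, 2 calls in the other IL-17 family and 2416 over all genes. With single arrays left out, calls ran from 0 to 4 among the members, 0 to 10 in type 17 differentiation, 0 to 2 in the other IL-17 family, 0 to 6 in receptor signalling, 0 to 4 among the partners and 10 to 24 among the targets. Over all genes the calls ran from 67 without control replicate 3 to 2617 without CLEC4C-DTR replicate 1 in these fits.

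The values do not settle whether the shared replicate numbers of the titles pair the mice. The deviations of same-numbered arrays correlated at -0.06, 0.217 and 0.104 across genes. CLEC4C-DTR replicates 2 and 3 were most like the control of their own number, and CLEC4C-DTR replicate 1 was most like control replicate 3 (0.177). With the replicate number as a block, 3 members passed in limma, Il17a among them (adjusted p = 0.0203). The lists of differentiation, other family, signalling, partners and targets then held 11, 2, 7, 5 and 25 calls. In that fit 2084 of all 19938 genes passed. Of 138 comparisons of single members with an alternative, 123 kept their side of the threshold and direction, 10 lost the call, 4 gained it and 1 turned sign. All 10 losses fell on the called members Ccl20 and Il17ra, which had 16 alternatives each. No background measure came with the values, so whether dim members such as Ccr6 and Il23a lie above background was not measured.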
